A study of Mus musculus with 12 samples.

Results

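The mRNA levels of 10 genes of the NRF2 antioxidant program were followed in mouse hepatocytes that received benzbromarone (BBR), oleic acid (OA), or both. The 10 genes are Nfe2l2, which encodes NRF2 itself, and the target genes Gclc, Gclm, Slc7a11, Srxn1, Txnrd1, Nqo1, Hmox1, Osgin1 and G6pdx. They were chosen by name, with earlier results of these data known, out of 22471 features in the deposited tables. All 10 were present and passed the filter on low counts in every comparison. Counts of members and of list genes are therefore set beside the share of all genes as description only. Primary hepatocytes were taken from male C57BL/6J mice by collagenase perfusion and kept in culture. BBR is a drug that lowers serum uric acid, and OA is a monounsaturated fatty acid that loads hepatocytes with lipid. The Con group had neither agent, ConOA had OA, BBR had the drug and BBROA had both, with 3 RNA-seq libraries in each group. The labels give neither dose nor exposure time, and the series calls the 3 libraries of a group biological replicates without naming their animals or cultures, so that p-values measure the spread between these libraries only.

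NRF2 is a transcription factor of the cap'n'collar family that pairs with small MAF proteins (MAFF, MAFG, MAFK) and binds antioxidant response elements near its target genes. In resting cells KEAP1 binds NRF2 and hands it to a CUL3 ubiquitin ligase for destruction, and electrophiles or oxidants that modify KEAP1 let NRF2 accumulate. Because this control acts on the protein, the Nfe2l2 mRNA level is not a measure of NRF2 activity. In the liver the program supplies glutathione, thioredoxin reduction, NADPH and enzymes that reduce quinones and degrade heme. BACH1 is a heme-sensitive repressor that competes for the same elements, above all at Hmox1.

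Total estimated counts ranged from 15485498 to 23668371 per library, and the 10 genes together took 0.193 to 0.271% of them. Levels below are CPM (counts scaled to a common library size), adjusted by the trimmed mean of M values (TMM), where 1 count corresponded to between 0.0423 and 0.0646 CPM, and every level of a member lay far above that. Hepatocyte markers (Alb, Ttr, Apoa1, Cyp2e1, Serpina1c and Tat) summed to between 31498 and 39525 CPM, most of it Alb (28106 CPM on average in Con). Over the 4 groups, 5 cholangiocyte markers summed to 199 to 722 CPM, 7 Kupffer cell markers to 84.3 to 166 CPM, 5 endothelial markers to 33.4 to 43.0 CPM and 5 stellate cell markers to 5.59 to 8.38 CPM. The defining markers of hepatocytes were thus present, and markers of other liver cells were detected at lower summed levels. In these bulk libraries fewer cells of a type and less RNA per cell cannot be told apart.

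The antioxidant response element is written here as TGACNNNGC and was searched on both strands from 250 bases before to 50 bases after the transcription start (RefSeq promoter windows, build GRCm38.p6, the assembly of mm10). Windows were read for 8 members, as none was available for Hmox1 and Gclc. Of these 8, 5 held the motif (Gclm, Srxn1, Txnrd1, G6pdx and Nfe2l2), compared with 14.0% of 27025 genes and 12.4% of 32851 windows of the same length. The windows of Nqo1, Osgin1 and Slc7a11 held no match, which says only that these letters are not in those 300 bases. The sites are shown because the genes below move together or apart under OA and BBR, and a reader can set each change beside its letters. Each line gives the strand of the gene, 5′ to 3′, with the 9 motif bases in capitals. In the first 4 lines the motif lies on the opposite strand, so that the capitals are its reverse complement.
Gclm: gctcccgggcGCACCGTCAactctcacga
Srxn1: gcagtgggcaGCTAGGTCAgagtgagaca
Txnrd1: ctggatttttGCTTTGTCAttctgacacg
G6pdx: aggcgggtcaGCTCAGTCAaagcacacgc
Nfe2l2: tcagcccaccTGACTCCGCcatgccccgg

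Coordinates below are those of the 29 bases printed, and distances are those of the first motif base along the strand of the gene. The Gclm site (chr3:122245413-122245441, plus strand) lies upstream of the gene, 134 bases before the start. In the Srxn1 site (chr2:152105542-152105570, plus strand) the motif begins 28 bases after the start, within an exon. The Txnrd1 site (chr10:82859104-82859132, plus strand) lies 92 bases before a second annotated start and within an intron of the longer gene model. The G6pdx site (chrX:74428919-74428947, minus strand) lies 57 bases before the RefSeq start and within an exon of a longer GENCODE transcript. The Nfe2l2 site (chr2:75704885-75704913, minus strand) lies 240 bases before the start, upstream of the gene. A match is a description of sequence, and no binding was measured.

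Compared per transcript length as deposited FPKM, the members covered a wide range in Con hepatocytes. Osgin1 was the most abundant with 270 ± 4.68 FPKM (SD, n = 3), followed by Srxn1 with 168 ± 3.14 FPKM. Txnrd1, Gclc and Hmox1 followed at 138, 135 and 134 FPKM, and these neighbors overlapped in their libraries. Nfe2l2 and Gclm, at 84.2 and 80.6 FPKM, also overlapped, as did G6pdx and Slc7a11 at 22.3 and 22.2 FPKM. Nqo1 was the lowest member with 7.56 ± 0.748 FPKM. Hmox1, below 4 other members in Con, was first in ConOA (182 FPKM), BBR (261 FPKM) and BBROA (161 FPKM), although it overlapped Osgin1 in ConOA and BBROA. Nqo1 stayed last in all 4 groups.

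**Figure D1:**
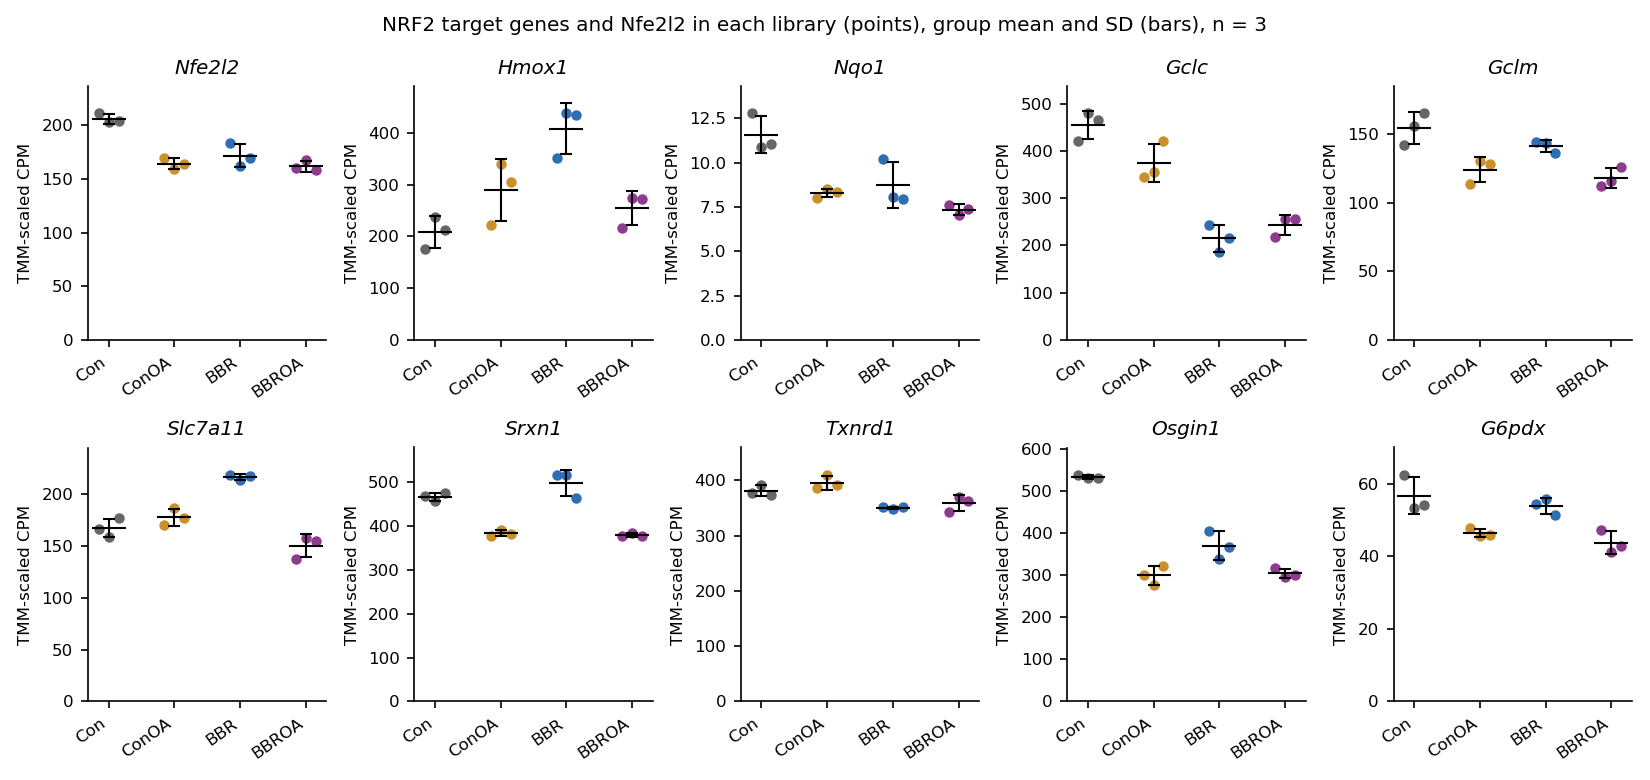
TMM-scaled CPM (vertical axes, starting at 0) of the 10 genes in each of the 12 libraries, with one panel a gene. Points are libraries and bars are the group mean and SD (n = 3). Hmox1 is highest in the 3 BBR libraries, Gclc is lower in all BBR and BBROA libraries than in any Con or ConOA library, and Osgin1 is highest in the 3 Con libraries.

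The first question was what OA did to the program without the drug. In ConOA against Con, 7 of the 10 members fell (Osgin1, Nqo1, Nfe2l2, Gclm, G6pdx, Srxn1 and Gclc), where 21.5% of all 12418 tested genes fell, and 1 rose (Hmox1), where 21.3% of all genes rose. The median log2 fold change of the members was -0.28, and that of all tested genes was -0.01. In drug-treated cells, BBROA against BBR, 6 members fell (Hmox1, Slc7a11, Srxn1, G6pdx, Osgin1 and Gclm), where 18.8% of all 12416 genes fell. No member rose, where edgeR called 20.1% of all genes higher. The count of members that rose was also 0 in DESeq2, in limma on FPKM and at an unadjusted p under 0.05, but Gclc was called higher in 3 of its 14 alternatives (0.27 without BBR replicate 1, 0.25 without BBROA replicate 1 and 0.18 with no filter). Srxn1, Gclm, G6pdx and Osgin1 fell in both OA comparisons. Adjusted p-values here and below are from edgeR's quasi-likelihood test with Benjamini-Hochberg adjustment over all tested genes. Markers of cell types also moved with OA. Hepatocyte markers summed to 36379 to 39525 CPM in the OA-treated groups and to 31498 to 35226 CPM in the others, with Alb carrying the sum. Of the 6, 4 rose in ConOA against Con, and 3 rose and 2 fell (Cyp2e1 by 0.49 and Serpina1c by 0.15 on the log2 scale) in BBROA against BBR. Summed markers of cholangiocytes, carried mostly by Spp1, were 590 to 722 CPM in Con, 242 to 272 in ConOA, 391 to 421 in BBR and 199 to 240 in BBROA, and of these 5 markers Krt7 was at 0 in all Con libraries. Spp1 fell by 1.58 in ConOA against Con whereas Sox9 rose by 0.60 (adjusted p = 4.29e-04), and in BBROA against BBR both fell, by 1.05 and 0.20. The part of these shifts in the members' falls was not tested.

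The drug was then compared with its control in the absence and in the presence of OA. In BBR against Con, 2 members rose (Hmox1 and Slc7a11), where 13.2% of all 12555 tested genes rose, and 4 fell (Gclc, Osgin1, Nqo1 and Nfe2l2), where 14.5% of all genes fell. The median of the members was -0.12 on the log2 scale and that of all genes was -0.00085. With OA present, BBROA against ConOA, 2 members fell (Gclc and Slc7a11), where 2.63% of all 12278 genes fell. No member rose, where edgeR called 1.95% of all genes higher, and the count was also 0 in DESeq2, in limma on FPKM and at an unadjusted p under 0.05. Gclc fell in both drug comparisons, while Slc7a11 rose in one and fell in the other. The pair of drug comparisons shares no library. By contrast, ConOA against Con and BBR against Con share the 3 Con libraries, so that a member's changes in these comparisons are not independent. In BBR against Con, cell type markers moved as well. The endothelial markers Kdr and Pecam1 rose by 0.50 and 0.39 on the log2 scale, while Lyve1 (-0.52), Clec4g (-0.81) and Stab2 (-0.05) did not pass the test. Clec4g was at a very low level, 0.552 CPM in Con and 0.321 CPM in BBR. The cholangiocyte markers Krt19, Epcam and Sox9 rose by 0.68, 0.92 and 0.61, and Spp1 fell by 0.83. Of the 6 hepatocyte markers, Ttr and Cyp2e1 rose by 0.18 and 0.28, and Tat fell by 0.44. Mitochondrial transcripts took 6.34 to 6.89% of counts in BBR and 5.50 to 6.07% in Con. The part of these shifts in the drug's effect on the members was not tested.

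**Figure D2:**
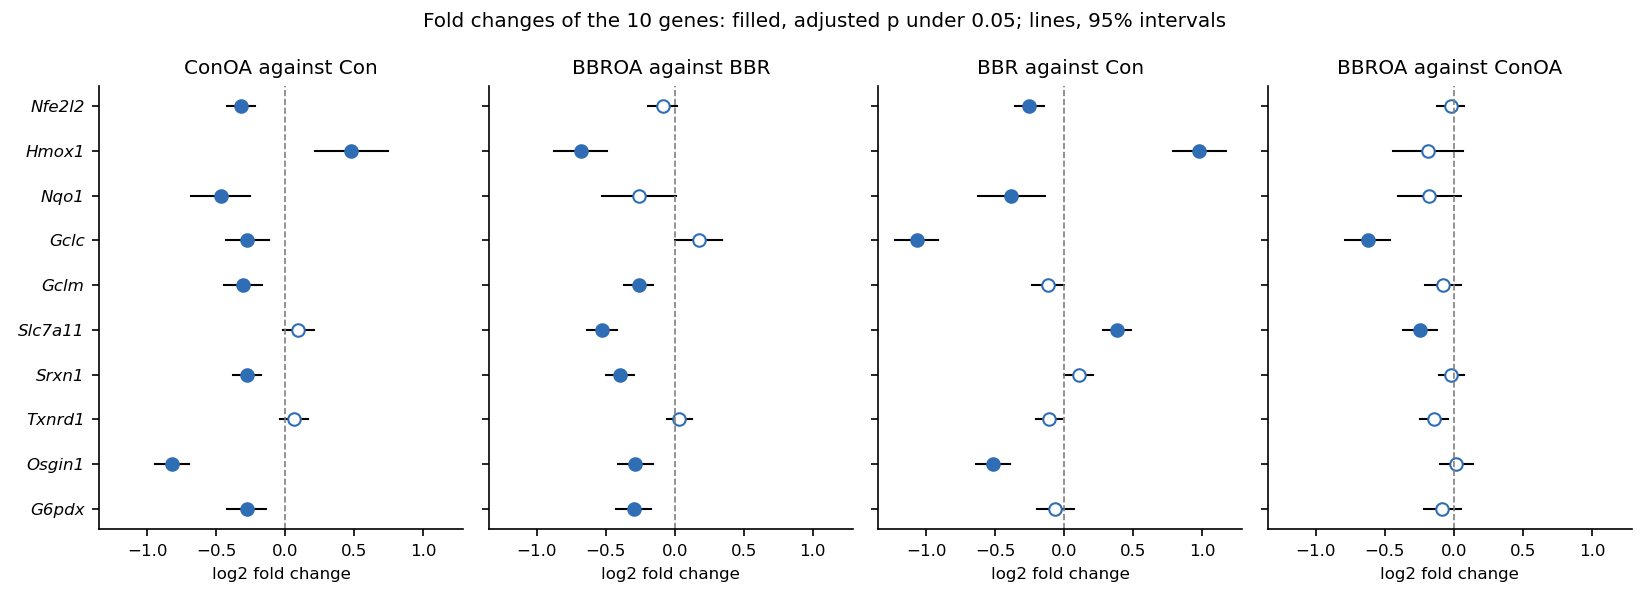
Log2 fold changes (horizontal axes) of the 10 genes in the 4 comparisons, from edgeR on 3 against 3 libraries. Lines are 95% intervals and filled points have an adjusted p under 0.05. Filled points number 8 for ConOA against Con, 6 for BBROA against BBR, 6 for BBR against Con and 2 for BBROA against ConOA.

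Nfe2l2 (chr2:75675513-75704641, GRCm38, minus strand) encodes NRF2. Its level was 211, 203 and 204 CPM in Con, 169, 159 and 164 in ConOA, 183, 162 and 169 in BBR and 160, 167 and 158 in BBROA. The 3 Con libraries were above all other libraries, and the other 3 groups overlapped one another. Against Con, Nfe2l2 fell by 0.32 on the log2 scale with OA (SE 0.0477, adjusted p = 9.52e-05) and by 0.26 with BBR (SE 0.0501, adjusted p = 0.00116). Both falls are measured from the same 3 Con libraries. In OA-treated cells BBR gave a log2 fold change of -0.03 (95% interval -0.13 to 0.08, adjusted p = 0.825), and in BBR-treated cells OA gave -0.09 (adjusted p = 0.173, and 0.0474 with upper quartile scaling).

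Keap1, the NRF2 adaptor that marks it for destruction, fell with OA alone. Its mean was 92.5 ± 2.13 CPM in Con and 74.1 ± 2.93 CPM in ConOA, a log2 fold change of -0.31 (adjusted p = 0.000174). It was 85.5 CPM in BBR and 78.9 CPM in BBROA, and its changes in the other 3 comparisons did not pass the test (adjusted p = 0.175, 0.102 and 0.378). Bach1, the competing repressor, lay between 47.0 and 52.5 CPM in the 4 group means and passed only in BBR against Con, at 0.15 on the log2 scale with an adjusted p of 0.0499. Over the list of 10 NRF2 regulators, 6 rose and 2 fell in ConOA against Con (21.3% and 21.5% of all genes). In BBROA against BBR 3 rose and 1 fell (20.1% and 18.8% of all genes), and in BBR against Con 6 rose (13.2% of all genes). With 10 genes such counts are description only. The small MAF gene Mafk rose with OA in both settings, by 0.49 and 0.51 on the log2 scale, from 47.3 and 48.3 CPM to 66.0 and 68.6 CPM. Maff rose by 0.71 and 0.27, and Nfe2l1, a relative of NRF2 that controls proteasome genes, rose by 0.36 and 0.29.

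Gclc (chr9:77754535-77794485, plus strand) encodes the catalytic subunit of glutamate-cysteine ligase, the rate-limiting enzyme of glutathione synthesis. It measured 421, 480 and 464 CPM in Con, 345, 356 and 421 in ConOA, 243, 187 and 216 in BBR and 218, 256 and 256 in BBROA. All 6 libraries with the drug were below all 6 without it, and BBR and BBROA overlapped. BBR lowered Gclc by 1.07 on the log2 scale without OA (SE 0.0747, adjusted p = 5.13e-08), to 0.476 of its Con level. With OA present it fell by 0.63 (SE 0.0751, adjusted p = 2.34e-04), to 0.648 of its ConOA level. Both calls held in all 14 alternatives, among them the unadjusted p under 0.05, which no call can fail. OA alone lowered Gclc by 0.28 (adjusted p = 0.00656), and in drug-treated cells the value was 0.17 (95% interval -0.00097 to 0.35, adjusted p = 0.109).

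Gclm (chr3:122245557-122270732, plus strand) encodes the modifier subunit of the same enzyme, and its response differed from that of Gclc. It stood at 142, 156 and 165 CPM in Con, 114, 130.1 and 129 in ConOA, 144, 143 and 136 in BBR and 112, 116 and 126 in BBROA. The 6 OA libraries were all below the 6 libraries without OA. Gclm fell with OA by 0.31 without the drug (adjusted p = 0.00151) and by 0.26 with it (adjusted p = 6.97e-04), whereas BBR gave -0.12 without OA (95% interval -0.24 to -0.0054, adjusted p = 0.113, and 0.0252 without Con replicate 1) and -0.08 with OA (95% interval -0.21 to 0.05, adjusted p = 0.535). The ratio of Gclc to Gclm, in FPKM, was 1.67 ± 0.0917 in Con and 1.60 ± 0.187 in ConOA, and 0.856 ± 0.129 in BBR and 1.11 ± 0.0418 in BBROA (SD, n = 3). The lowest ratio without the drug was 1.49 and the highest with it was 1.14, so that these libraries did not overlap.

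**Figure D3:**
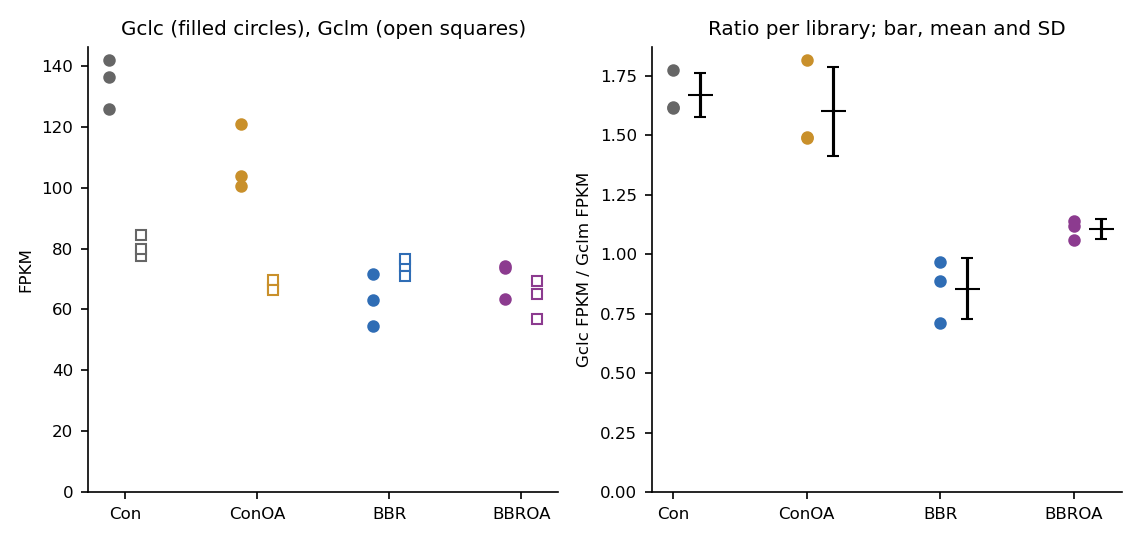
FPKM of the glutamate-cysteine ligase subunits (left; filled circles Gclc, open squares Gclm) and the ratio of Gclc to Gclm (right) in each of the 12 libraries, with the mean and SD of the ratio beside the points (n = 3). The mean ratio is 1.67 in Con and 1.60 in ConOA against 0.856 in BBR and 1.11 in BBROA.

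Slc7a11 (chr3:49892526-50443614, minus strand) encodes the cystine importer xCT, which provides cysteine for glutathione and is also a target of the stress factor ATF4. It measured 167, 159 and 177 CPM in Con, 171, 187 and 177 in ConOA, 219, 214 and 218 in BBR and 138, 158 and 155 in BBROA. The BBR libraries were the highest and the BBROA libraries the lowest of all 12. Among the members only Slc7a11 had estimated counts that were not whole, such as 3323.34 in Con 1. Other annotated genes overlap its locus on both strands, among them Gm37498 with 4002 bases on the same strand. The part of shared reads in the Slc7a11 values was not tested. BBR raised Slc7a11 by 0.38 on the log2 scale without OA (SE 0.0479, adjusted p = 1.97e-05) and lowered it by 0.25 with OA (SE 0.0572, adjusted p = 0.0258). The second call was lost on log2 FPKM and without ConOA replicate 2, BBROA replicate 1 or BBROA replicate 3, with a highest adjusted p of 0.139. OA lowered Slc7a11 by 0.53 in drug-treated cells (adjusted p = 1.61e-06), and the value without the drug was 0.10 (95% interval -0.02 to 0.21, adjusted p = 0.171).

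Srxn1 (chr2:152105516-152111376, plus strand) encodes sulfiredoxin, which repairs overoxidized peroxiredoxins. Its level was 468, 456 and 475 CPM in Con, 377, 390.2 and 382 in ConOA, 516, 514 and 464 in BBR and 376, 384 and 377 in BBROA. All 6 OA libraries were below all 6 others, and Con and BBR overlapped. Srxn1 fell with OA by 0.28 without the drug (adjusted p = 2.71e-04) and by 0.40 with it (adjusted p = 1.27e-05). Its log2 fold changes with BBR were 0.10 without OA (95% interval -0.0060 to 0.21, adjusted p = 0.154) and -0.02 with OA (95% interval -0.11 to 0.07, adjusted p = 0.860).

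Txnrd1 (chr10:82833951-82897712, plus strand) encodes cytosolic thioredoxin reductase and had, relative to its level, the narrowest range among the members. Over the 12 libraries it ranged from 342 to 410.1 CPM, with group means of 381 CPM in Con, 396 in ConOA, 351 in BBR and 358 in BBROA. Its largest value in the 4 comparisons was -0.15 for BBROA against ConOA (95% interval -0.25 to -0.04, adjusted p = 0.102). Its libraries did not overlap in either drug comparison, but neither passed the test (adjusted p = 0.0647 in BBR against Con and 0.102 in BBROA against ConOA, and 0.0411 and 0.0124 at the lowest in their alternatives). At the adjusted threshold, calls were gained with the replicate number as a block in both comparisons. In BBR against Con a call was also gained with all 12 libraries fitted together. With OA the value was 0.06 without the drug (95% interval -0.04 to 0.16) and 0.03 with it (95% interval -0.06 to 0.12), the latter -0.01 with upper quartile scaling.

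Nqo1 (chr8:107388225-107403206, minus strand), a quinone reductase used as a classical reporter of NRF2, was present at a low level. It measured 12.8, 10.9 and 11.1 CPM in Con, 8.03, 8.50 and 8.37 in ConOA, 10.2, 8.05 and 7.96 in BBR and 7.64, 7.03 and 7.39 in BBROA. The Con libraries were the highest and the BBROA libraries the lowest. Nqo1 fell by 0.47 with OA alone (SE 0.101, adjusted p = 0.00182) and by 0.38 with BBR alone (SE 0.116, adjusted p = 0.0203). The call with BBR was lost without Con replicate 1 (-0.31), BBR replicate 2 (-0.33) or BBR replicate 3 (-0.32). The addition of the second agent gave -0.26 (BBROA against BBR, adjusted p = 0.115) and -0.18 (BBROA against ConOA, adjusted p = 0.402).

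Hmox1 (chr8:75093621-75100589, plus strand) encodes heme oxygenase 1, which degrades heme. It measured 175, 237 and 213 CPM in Con, 222, 339 and 304 in ConOA, 351, 438 and 435 in BBR and 216, 275 and 272 in BBROA. The 3 BBR libraries were above all others, and ConOA overlapped both Con and BBROA. BBR raised Hmox1 by 0.98 on the log2 scale without OA, or 1.97-fold (SE 0.0913, adjusted p = 9.92e-07), which held in all 14 alternatives. In OA-treated cells the drug gave -0.19 (95% interval -0.44 to 0.07, adjusted p = 0.438), and -0.34 with an adjusted p of 0.0161 without ConOA replicate 1. With the replicate number as a block, Hmox1 was also called lower there. OA raised Hmox1 by 0.48 without the drug (SE 0.123, adjusted p = 0.00596, and 0.0574 in DESeq2) and lowered it by 0.68 with the drug (SE 0.0896, adjusted p = 3.46e-05).

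Hmox1 is also expressed by macrophages, and the 7 Kupffer cell markers are therefore given beside it. They summed to 84.3 to 104.8 CPM in Con, 85.8 to 105.5 in ConOA, 122 to 166 in BBR and 86.5 to 102 in BBROA, with no marker at 0 in all libraries of a group. Most of this sum was Cd68, a lysosomal protein, with means of 80.1 CPM in Con, 78.1 in ConOA, 131 in BBR and 71.8 in BBROA. Cd68 rose with BBR by 0.71 on the log2 scale without OA (adjusted p = 9.04e-05) and gave -0.13 with OA (adjusted p = 0.601). It was the only one of the 7 markers that rose in BBR against Con. Cd5l, a marker of resident Kupffer cells, fell by 0.68 (5.98 to 3.71 CPM, adjusted p = 0.00810), and the other 5 did not pass the test, among them Clec4f at 0.69 (adjusted p = 0.0637) and Adgre1 at -0.29 (adjusted p = 0.366). In ConOA against Con the sum stayed level while 2 markers rose, Marco 5.70-fold (1.20 to 6.89 CPM) and Adgre1 2.67-fold (2.40 to 6.36 CPM). A further 4 fell, Clec4f (1.11 to 0.442 CPM), Cd5l (5.98 to 2.87 CPM), Vsig4 (1.15 to 0.505 CPM) and C1qa (5.48 to 3.42 CPM). All of these levels were low, so that the fold changes rest on few counts. In BBROA against BBR, Marco and Adgre1 rose, and Cd68 and Clec4f fell. The part of macrophage RNA in the Hmox1 result was not tested.

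Osgin1 (chr8:119434124-119446256, plus strand), an oxidative stress-induced growth inhibitor, had the largest change with OA alone among the members. It measured 538, 531 and 529 CPM in Con, 299, 277 and 322 in ConOA, 406, 338 and 366 in BBR and 317, 295 and 299 in BBROA. The Con libraries were the highest, the BBR libraries lay below them and above all OA libraries, and ConOA and BBROA overlapped. Osgin1 fell by 0.82 with OA alone (SE 0.0570, adjusted p = 6.63e-08), by 0.52 with BBR alone (SE 0.0579, adjusted p = 5.73e-06) and by 0.29 with OA in drug-treated cells (SE 0.0581, adjusted p = 0.00133). In OA-treated cells the drug gave 0.02 (95% interval -0.10 to 0.14, adjusted p = 0.905).

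G6pdx (chrX:74409483-74429194, minus strand) encodes glucose-6-phosphate dehydrogenase, the entry enzyme of the pentose phosphate pathway and a source of NADPH. Its group means were 56.7 ± 5.02 CPM in Con, 46.4 ± 1.15 in ConOA, 53.9 ± 2.21 in BBR and 43.8 ± 3.14 in BBROA. It fell with OA by 0.28 without the drug (adjusted p = 0.00308) and by 0.30 with it (adjusted p = 0.00123), while BBR gave -0.07 without OA (95% interval -0.20 to 0.07; 0.0085 without Con replicate 1) and -0.09 with OA (95% interval -0.22 to 0.05). The whole of G6pdx is overlapped by Ikbkg on the opposite strand, which measured 174 CPM on average. Strand-specific counting is not stated, so the G6pdx values are uncertain. Gclm, Txnrd1 and Nfe2l2 are overlapped in part by other annotated genes. The longest overlaps were 14775 bases for Gclm and 13276 for Txnrd1, both on the opposite strand, and 99 for Nfe2l2 on the same strand. Their part in the levels of these members was not tested.

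Whether the effect of BBR depended on OA was tested directly as the interaction, the BBR effect with OA minus that without it. For 5 members the effects differed. The interaction was positive for 3 members (Osgin1, Gclc and Nfe2l2), where it was positive for 6.87% of 12742 tested genes, and negative for 2 (Hmox1 and Slc7a11), where it was negative for 5.31%. For Hmox1 it was -1.15 on the log2 scale (SE 0.184, adjusted p = 3.94e-04) and for Slc7a11 -0.62 (SE 0.0767, adjusted p = 5.26e-05), so that both genes rose with the drug only in the absence of OA. For Osgin1 it was 0.55 (SE 0.0859, adjusted p = 3.52e-04), since the drug lowered Osgin1 without OA and gave 0.02 with it. These 3 calls held in all 19 alternatives, among them the unadjusted p under 0.05, which no call can fail. For Gclc it was 0.46 (SE 0.123, adjusted p = 0.0203) and for Nfe2l2 0.24 (SE 0.0673, adjusted p = 0.0244), but the first was lost in 6 and the second in 7 of 19 alternatives, with highest adjusted p-values of 0.0807 and 0.111. Without ConOA replicate 2, BBR replicate 2, BBROA replicate 2 or BBROA replicate 3, only 1 member had a positive interaction that passed. For the other 5 members the interaction did not pass, and its 95% interval was -0.11 to 0.54 for Nqo1, -0.13 to 0.24 for Gclm, -0.24 to 0.02 for Srxn1, -0.15 to 0.11 for Txnrd1 and -0.20 to 0.18 for G6pdx. Cd68 also had a negative interaction, of -0.83 (adjusted p = 0.00765), and its part in that of Hmox1 was not tested.

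**Figure D4:**
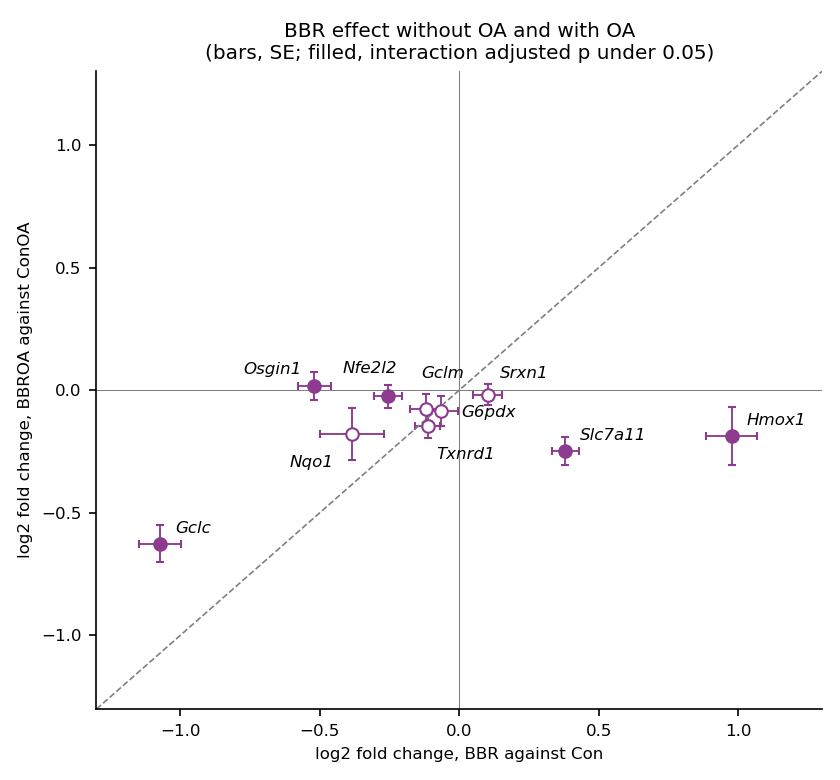
Log2 fold change of each gene with BBR in the absence of OA (horizontal axis) and in the presence of OA (vertical axis), each from 3 against 3 libraries, with SE bars. Filled points have an interaction with an adjusted p under 0.05 and the dashed line marks equal effects. Hmox1 lies at 0.98 and -0.19, Slc7a11 at 0.38 and -0.25, and Gclc at -1.07 and -0.63.

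The members did not vary as one unit over the 12 libraries. As a description, with Pearson's r of log2 CPM over libraries that share 4 treatment groups, Osgin1 followed Nfe2l2 (r = 0.96) and Nqo1 followed Nfe2l2 (r = 0.93), Hmox1 went with Slc7a11 (r = 0.77), and Hmox1 and Gclc ran in opposite directions (r = -0.60). With the group means removed, r was 0.65 for Osgin1 and Nfe2l2 and 0.27 for Hmox1 and Gclc. The mean standardized level of the 10 members was 0.74 to 0.78 in Con, 0.12 to 0.50 in BBR, -0.42 to -0.06 in ConOA and -1.01 to -0.73 in BBROA, and these 4 ranges did not overlap. Among 9704 other genes with a mean of at least 5 CPM, the patterns most like this mean were those of Cdh17 (r = 0.99), Slc48a1 (r = 0.98), Cyp2j5 (r = 0.98), Synj2 (r = 0.98) and 1810011O10Rik (r = 0.97). Slc48a1, a heme transporter of endosomes and lysosomes, measured 292 ± 9.79 CPM in Con, 242 ± 4.38 in BBR, 208 ± 13.2 in ConOA and 172 ± 11.1 in BBROA. Cdh17, a cadherin, measured 26.2 ± 3.63 CPM in Con, 11.2 to 13.3 CPM in BBR, 6.33 ± 0.611 CPM in ConOA and 2.12 ± 0.348 CPM in BBROA.

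The promoter motif can be set beside the changes. Of the 5 members with a match, Gclm, Srxn1, G6pdx and Nfe2l2 fell with OA alone and Txnrd1 did not pass the test. Of the 3 members whose windows held none, Nqo1 and Osgin1 fell with OA alone and Slc7a11 did not pass. With OA alone both sets thus held members that fell and members that did not pass. With BBR alone, Nfe2l2 fell and Gclm, Srxn1, Txnrd1 and G6pdx did not pass. Of those without a match, Nqo1 and Osgin1 fell and Slc7a11 rose with BBR alone. Hmox1 and Gclc, which also changed with BBR alone, had no window. With so few genes no more can be read from these sets.

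Other genes were described by lists of 67 genes in all, also chosen with earlier results of these data known. Besides genes of antioxidant defense, the lists hold 10 NRF2 regulators and 7 ATF4 targets. In ConOA against Con 31 of them fell and 19 rose, where 21.5% and 21.3% of all genes did. In BBROA against BBR 31 fell and 17 rose, where 18.8% and 20.1% did. The genes that rose included all 7 of the ATF4 list in both comparisons. They also included 6 of the 10 NRF2 regulators in ConOA against Con and 3 in BBROA against BBR. The pooled counts that rose therefore do not describe the antioxidant enzymes alone. Drug and carbonyl detoxification was the list with the largest share of lower genes: 9 of 10 genes fell in ConOA against Con and 8 of 10 in BBROA against BBR, with medians of -0.57 and -0.45 on the log2 scale. Cbr3, a carbonyl reductase known as an NRF2 target, fell from 18.3 to 7.45 CPM (log2 -1.29, adjusted p = 2.91e-06) and from 11.6 to 6.71 CPM (-0.80, adjusted p = 3.71e-05). Its relative Cbr1 fell by 0.75 and 0.66, and the aldehyde oxidase Aox1 fell by 0.81 and 0.54.

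Among 14 glutathione enzymes and transporters, 8 fell and 3 rose in ConOA against Con, where 21.5% of all genes fell and 21.3% rose. In BBROA against BBR 10 fell and 3 rose, where 18.8% of all genes fell and 20.1% rose. The 3 that rose are near those shares and say nothing particular about this list. Abcc4, an exporter of conjugates, fell by 0.81 and 0.84, and the glutathione transferase Gsta4, which has close paralogs that may share reads, fell by 0.80 and 0.77. Gpx1, the glutathione peroxidase of the cytosol, went the other way and rose by 0.43 and 0.73, from 1172 to 1572 CPM and from 1018 to 1688 CPM. Of 10 thioredoxin and peroxiredoxin genes, 5 fell and 2 rose without the drug and 4 fell and 3 rose with it. The 2 that rose without the drug are also near the share of all genes. Txnip, which inhibits thioredoxin, fell by 0.78 and 0.43, the peroxiredoxin gene Prdx2 fell by 0.35 and 0.17, and mitochondrial Txn2 rose by 0.15 and 0.28.

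The other lists are short, so their counts are description only. Beside them, 21.5% of all genes fell and 21.3% rose in ConOA against Con. In BBROA against BBR 18.8% fell and 20.1% rose. In the NADPH supply list, 4 of 6 genes fell in ConOA against Con and 2 in BBROA against BBR. The malic enzyme Me1 fell by 0.35 and 0.28 and the isocitrate dehydrogenase Idh1 by 0.39 and 0.15. Of 6 heme and iron genes, 2 and 3 fell, the ferrochelatase Fech by 0.32 and 0.29 and the ferritin light chain Ftl1 by 0.21 and 0.30. Of the 4 general antioxidant enzymes, 1 fell and 1 rose without the drug and 3 fell and 1 rose with it. Catalase (Cat) fell by 0.63 and 0.41, and the mitochondrial superoxide dismutase Sod2 rose by 0.22 and 0.37. All 7 genes of the ATF4 list, which marks the amino acid and endoplasmic reticulum stress response, rose in both OA comparisons, with medians of 0.78 and 0.54. Chac1, which degrades glutathione, rose from 21.1 to 46.1 CPM and from 23.0 to 50.6 CPM, and the asparagine synthetase Asns rose from 67.3 to 137 CPM and from 68.6 to 132 CPM. Slc7a11, although a known target of ATF4, fell with OA in drug-treated cells and did not pass the test without the drug.

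With BBR alone, 22 of the 67 list genes fell and 13 rose, where 14.5% and 13.2% of all genes did. The thioredoxin and peroxiredoxin list had 7 of 10 genes lower (median -0.20), the glutathione list 5 lower and 1 higher of 14, the detoxification list 5 of 10 lower, the NADPH list 3 of 6 lower, the heme and iron list 1 of 6 higher, the general antioxidant list 2 lower and 2 higher, and the ATF4 list 3 of 7 higher. In OA-treated cells 1 of the 67 genes rose and 1 fell, which is near the 1.95% and 2.63% of all genes and says nothing particular about the lists. Atf3, a stress-induced transcription factor, rose with BBR in both settings, with means of 31.7 CPM in Con against 44.6 in BBR (log2 0.50, adjusted p = 5.15e-06), and of 54.2 CPM in ConOA against 72.6 in BBROA (0.42, adjusted p = 0.00283). The glutathione reductase Gsr fell with OA present by 0.19 (adjusted p = 0.0285). Gsr was named after its value was seen. The interaction passed in 10 genes in the positive and 3 in the negative direction, where 6.87% and 5.31% of all genes did.

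**Figure D5:**
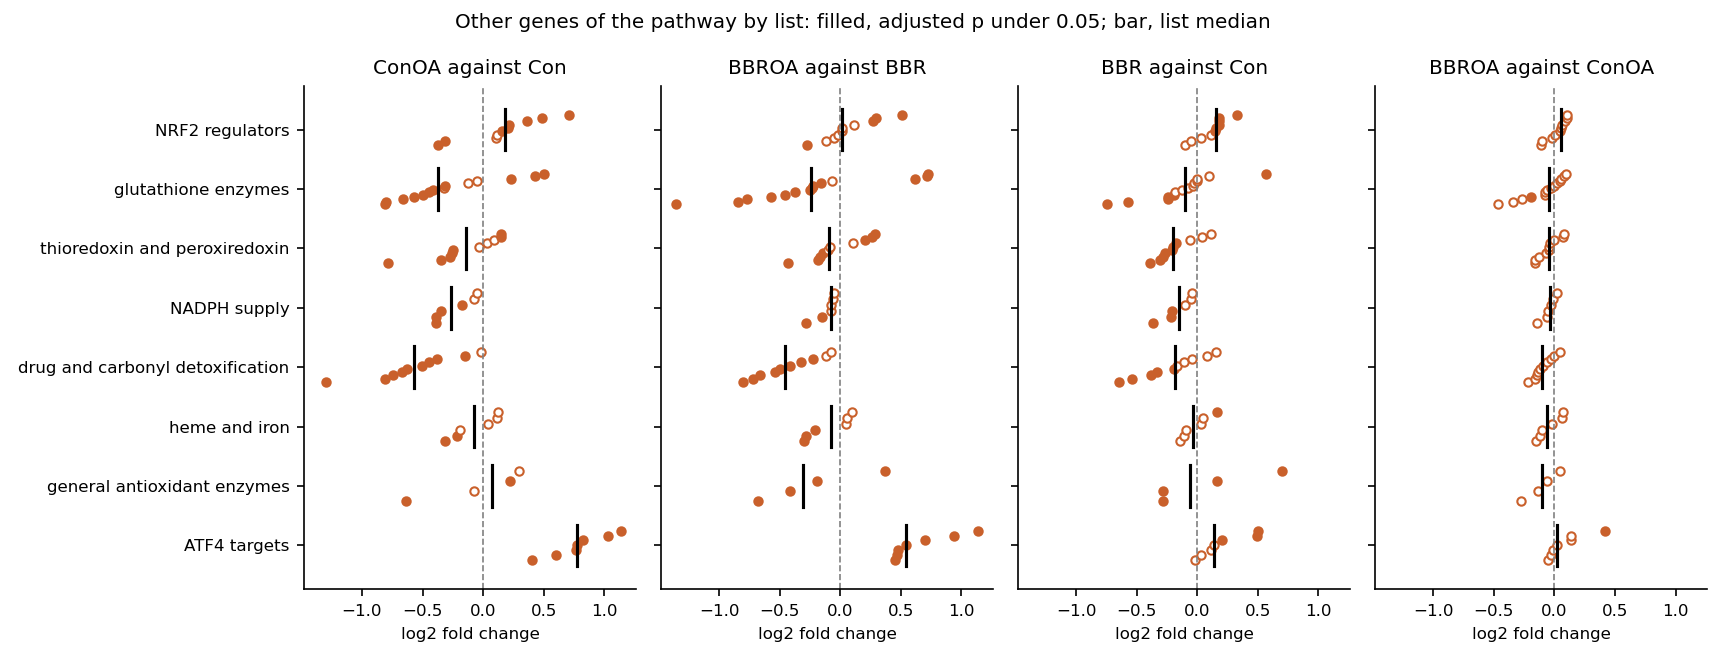
Log2 fold changes (horizontal axes) of the 67 genes of the 8 lists in the 4 comparisons. Each point is a gene, filled where its adjusted p is under 0.05, and bars mark list medians. The median of the detoxification list is -0.57 in ConOA against Con and -0.45 in BBROA against BBR, and those of the ATF4 list are 0.78 and 0.54.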

How the data were processed

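The authors deposited a table for each of the 12 libraries with estimated counts, not all whole, and FPKM for 22471 features, made from poly(A)-selected RNA. The submitters' processing notes name mm10. The aligner, counter and strand setting are not given in the sources used here. Estimated counts were rounded to whole numbers, filtered by filterByExpr (minimum count 10), scaled by TMM and tested by the two-sided quasi-likelihood test of edgeR 4.0.16 (R 4.3.3) on the 6 libraries of each comparison, and on all 12 for the interaction, with Benjamini-Hochberg adjustment and a threshold of 0.05. The deposited FPKM served to compare levels between genes and, as log2(FPKM + 0.1), in limma 3.58.1. DESeq2 1.42.0, RLE and upper quartile scaling, no filter, a replicate block and leaving out each library were alternatives. So were all 12 libraries fitted together for the pairwise comparisons, and an unadjusted p under 0.05 on the main fit. The last can gain a call but cannot lose it. The fit was tested on simulated data. Replicates differed by more than sampling noise (chi-square per degree of freedom 2.69 to 7.26). Depth gives a floor of 3 counts, 0.127 to 0.194 CPM, which covers counting error only. Of 21911 Ensembl identifiers, 99.7% were found in GENCODE M21 (GRCm38), the source of loci. The members and lists were chosen with earlier results of these data known. Named besides the members were Keap1, Bach1, at most 3 genes a list called in the same direction without overlap in both OA or both BBR comparisons, and the 5 genes most like the members' mean.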

Additional observations from a re-analysis of the deposited data

Results flagged for a closer look

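For 5 members the effect of BBR differed with and without OA by the interaction term in edgeR. The differences on the log2 scale, the effect with OA minus that without it, were -1.15 for Hmox1 (adjusted p = 3.94e-04), -0.62 for Slc7a11 (adjusted p = 5.26e-05), 0.55 for Osgin1 (adjusted p = 3.52e-04), 0.46 for Gclc (adjusted p = 0.0203) and 0.24 for Nfe2l2 (adjusted p = 0.0244). Over the 19 alternatives the adjusted p ranged up to 0.00616 for Hmox1, 0.00140 for Slc7a11, 0.00306 for Osgin1, 0.0807 for Gclc and 0.111 for Nfe2l2. Hmox1 was higher in 3 of 3 BBR libraries than in any Con library, and its BBROA libraries overlapped those of ConOA.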

How the results depend on the processing

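Of 750 values of members under alternatives, 704 kept their direction and side of the threshold, 21 lost a call, 14 gained one and 11 changed sign. The 750 include those at an unadjusted p under 0.05 on the main fit, where no call can be lost. The sign changes touched no call. Txnrd1 in BBROA versus BBR was -0.011 with upper quartile scaling. The others came from leaving out a library, with ranges of -0.11 to 0.0085 for G6pdx in BBR versus Con, -0.037 to 0.076 for Osgin1 in BBROA versus ConOA, and -0.016 to 0.11 for Gclm and -0.089 to 0.032 for G6pdx in the interaction. Upper quartile scaling also moved the split of all genes from 2643 higher and 2668 lower to 2077 and 3216 in ConOA versus Con, and from 2496 and 2330 to 1976 and 2870 in BBROA versus BBR. The cause of these shifts was not tested.

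The BBROA versus ConOA count of 563 genes (240 higher, 323 lower) was the least stable. It was 185 (92 and 93) with limma on FPKM, 2351 (1090 and 1261) at an unadjusted p under 0.05, had 499 lower with no filter, and ranged from 216 to 632 (106 to 260 higher, 107 to 372 lower) when a library was left out, with 249 without ConOA replicate 2, 373 without BBROA replicate 1, 230 without BBROA replicate 2 and 216 without BBROA replicate 3. Its members lower were 1 with limma and 1 to 3 without a library. Members higher in ConOA versus Con were 0 with DESeq2, and in BBROA versus BBR 1 with no filter and 0 to 1 without a library. Limma gave 1066 genes higher in BBR versus Con (1661 in edgeR) and 449 with a negative interaction (676 in edgeR). The interaction count of 1551 genes was 3266 (1831 and 1435) unadjusted and 1027 to 1679 (503 to 922 positive) without a library, with 1 to 3 members positive. It was 1027 without ConOA replicate 2 and 1028 without BBR replicate 2, and the positive count was 576 without BBR replicate 2 and 546 without BBROA replicate 3.

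With the replicate number as a block, BBROA versus ConOA had 1333 genes (578 higher, 755 lower) with 4 members lower (Hmox1 and Txnrd1 added) and 9 list genes lower, ConOA versus Con had 2 members higher (Slc7a11 added), and the interaction had 1029 genes negative, with 16 list genes positive and 9 negative. In BBR versus Con the block added Txnrd1. The block raised the calls over all genes as well. They went from 563 to 1333 in BBROA versus ConOA and from 5311 to 6628 in ConOA versus Con. In BBR versus Con they went from 3484 to 4153, and the negative interactions from 676 to 1029. The added members and list genes are therefore description only. Deviations of same-numbered libraries correlated at 0.0535 to 0.183, not all over 0.1, although each library correlated best with its own number, so the pairing is a hint from the data only.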
